A study of Mus musculus with 2 samples.

Results

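Metallothioneins and zinc carriers were examined as 10 genes chosen by symbol from the 23183 genes listed in both libraries. They are the metallothionein genes *Mt1* and *Mt2*, their regulator *Mtf1*, the ZnT carriers *Slc30a1*, *Slc30a4* and *Slc30a7*, and the ZIP carriers *Slc39a1*, *Slc39a6*, *Slc39a10* and *Slc39a14*. The choice used no measured value of these libraries, although it was made with earlier results of the same data known. All 10 genes were expressed, which here means a mean over both libraries of 1 FPKM or more (fragments scaled to transcript length and library depth).

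The cells came from lung tumours of mice with the alleles *K-Ras* LSL-G12D, *p53* flox/flox and *Runx3* flox/FSF, a Tomato reporter and the tamoxifen-inducible recombinase FlpERT2. Nasal adenovirus carrying Cre switched on oncogenic *K-Ras* and deleted *p53* and the floxed *Runx3* allele, so cells of both groups carry these changes. In KPR- cells (labelled RUNX3 -/-, 0 h) a *Frt-Stop-Frt* cassette keeps the remaining *Runx3* allele off, and in KPRrestored cells (labelled RUNX3 -/+, 16 h) 4-hydroxytamoxifen (4-OHT) is meant to make FlpERT2 remove it. The sample records list 1 μM 4-OHT for both groups, whereas the study's text gives 4-OHT as what turns KPR- into KPRrestored cells. Each group is 1 library of poly(A) RNA from cells grown in DMEM with fetal bovine serum, with no replicate, so no test of the conditions could be made, and *Runx3*, 4-OHT and hours in culture cannot be told apart. The number of lines or clones behind a library is not given in the sources used here.

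Zinc is held in the cytosol at a very low free concentration. Metallothioneins are small cysteine-rich proteins that bind zinc, copper and cadmium. ZnT carriers (Slc30a) move zinc out of the cytosol into organelles or out of the cell, and ZIP carriers (Slc39a) move it in. The zinc-finger factor MTF-1, encoded by *Mtf1*, senses zinc, binds metal response elements (MREs) near its target genes, and is known to induce *Mt1*, *Mt2* and *Slc30a1* and to repress *Slc39a10*. Metallothionein genes are also known to respond to heavy metals, oxidants and glucocorticoids.

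The coding sequences of *Mt1* and *Mt2* are shown because both genes were higher in the library labelled KPRrestored and because alike sequences can share reads. They are from GENCODE M21 transcripts on GRCm38, 5′ to 3′, with the cysteine codons in capitals.
Mt1: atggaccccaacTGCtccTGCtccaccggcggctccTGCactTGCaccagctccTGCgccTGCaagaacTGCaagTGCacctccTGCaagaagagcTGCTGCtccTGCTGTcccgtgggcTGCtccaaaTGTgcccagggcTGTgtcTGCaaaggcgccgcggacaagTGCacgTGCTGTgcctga
Mt2: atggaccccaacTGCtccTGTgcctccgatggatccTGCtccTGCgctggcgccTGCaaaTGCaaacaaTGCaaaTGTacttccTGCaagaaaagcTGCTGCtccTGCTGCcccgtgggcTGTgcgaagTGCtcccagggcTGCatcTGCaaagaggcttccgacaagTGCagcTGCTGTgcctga
Each has 61 codons before the stop, and 20 of them are cysteine codons, at the same 20 positions in both genes. The sequences are identical at 148 of 186 positions (79.6%), and the longest identical stretch is 20 bases. No stretch of 100 bases, the read length, of the 549-base *Mt1* transcript occurs in a transcript of another gene (0 of 450 stretches). Of the 412 such stretches of the 511-base *Mt2* transcript, 113 occur in *Gm45774*, an antisense gene that overlaps *Mt2* on the opposite strand and was not analysed here. The library kit marks strand, but the strand setting of the counting is not given in the sources used here, so reads of *Gm45774* and *Mt2* cannot be told apart.

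The bases before the start of 4 genes are shown with the MRE core in capitals. They are the 250 bases before the RefSeq start on GRCm38.p6, 5′ to 3′ on the strand of the gene. The MRE core was searched as TGCACNC or TGCGCNC on both strands. *Mt1* and *Mt2* were higher in the library labelled KPRrestored, *Slc39a10* was lower, and *Slc30a1* did not reach the threshold either way.
Mt1 (chr8:94178839-94179088, plus strand): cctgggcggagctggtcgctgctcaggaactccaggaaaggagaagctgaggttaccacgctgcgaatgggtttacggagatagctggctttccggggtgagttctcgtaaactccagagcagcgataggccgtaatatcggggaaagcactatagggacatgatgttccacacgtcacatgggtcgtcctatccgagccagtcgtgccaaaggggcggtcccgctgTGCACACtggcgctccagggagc
Mt2 (chr8:94172368-94172617, plus strand): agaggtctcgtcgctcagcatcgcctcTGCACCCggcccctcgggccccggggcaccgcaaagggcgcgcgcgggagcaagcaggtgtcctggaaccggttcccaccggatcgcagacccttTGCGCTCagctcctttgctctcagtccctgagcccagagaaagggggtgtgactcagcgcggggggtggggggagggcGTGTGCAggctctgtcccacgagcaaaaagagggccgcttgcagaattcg
Slc30a1 (chr1:191906531-191906780, plus strand): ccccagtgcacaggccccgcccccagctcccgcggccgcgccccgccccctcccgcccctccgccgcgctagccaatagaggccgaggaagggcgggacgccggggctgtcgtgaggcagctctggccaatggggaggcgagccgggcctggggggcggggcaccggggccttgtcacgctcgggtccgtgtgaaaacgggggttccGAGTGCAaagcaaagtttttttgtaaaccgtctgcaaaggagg
Slc39a10 (chr1:46853619-46853868, minus strand): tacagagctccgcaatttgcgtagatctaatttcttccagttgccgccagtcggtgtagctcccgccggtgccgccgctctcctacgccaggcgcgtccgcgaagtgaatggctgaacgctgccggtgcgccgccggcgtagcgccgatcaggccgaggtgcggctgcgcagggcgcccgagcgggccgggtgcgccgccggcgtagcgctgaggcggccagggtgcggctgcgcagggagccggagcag
With the 50 bases after the start included, *Mt1* had 3 matches to the MRE core, *Mt2* had 4, *Slc30a4* had 3 and *Slc30a1* had 2. In *Mt1* they lay at bases -23, 3 and 21 from the RefSeq start, and in *Mt2* at bases -223, -128, -50 and 5. The GENCODE gene *Mt2* begins at chr8:94172664, past all of these *Mt2* matches. Of all 32851 RefSeq windows of the same 300 bases, 25.7% held at least 1 match, 1.97% held at least 3 and 0.517% held at least 4. The windows of *Mtf1*, *Slc30a7* and *Slc39a1* and both RefSeq windows of *Slc39a10* held 0 matches, and *Slc39a6* and *Slc39a14* had no window here. Of the *Slc39a10* windows, the one printed lies inside the GENCODE gene (chr1:46807544-46892852) and the other (chr1:46925727-46926026) lies outside it. The bases at the GENCODE 5′ end of *Slc39a10* were not searched. The RUNX motif (TGTGGT or TGCGGT, both strands), present in 22.4% of windows, had 1 match, in *Mt2* at bases -196 to -191. The antioxidant response element (ARE, searched as TGACNNNGC on both strands), present in 12.4% of windows, had 1 match each in *Mt2*, *Slc30a1* and *Slc39a1*. None of the MRE matches overlapped a RUNX or ARE match. A match is a run of letters and not a shown binding site. Bases beyond a window, such as those past base 50 of *Mt1*, were not searched. A count is thus that of a window at a RefSeq start and not the full number of MREs of a gene.

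**Figure D1:**
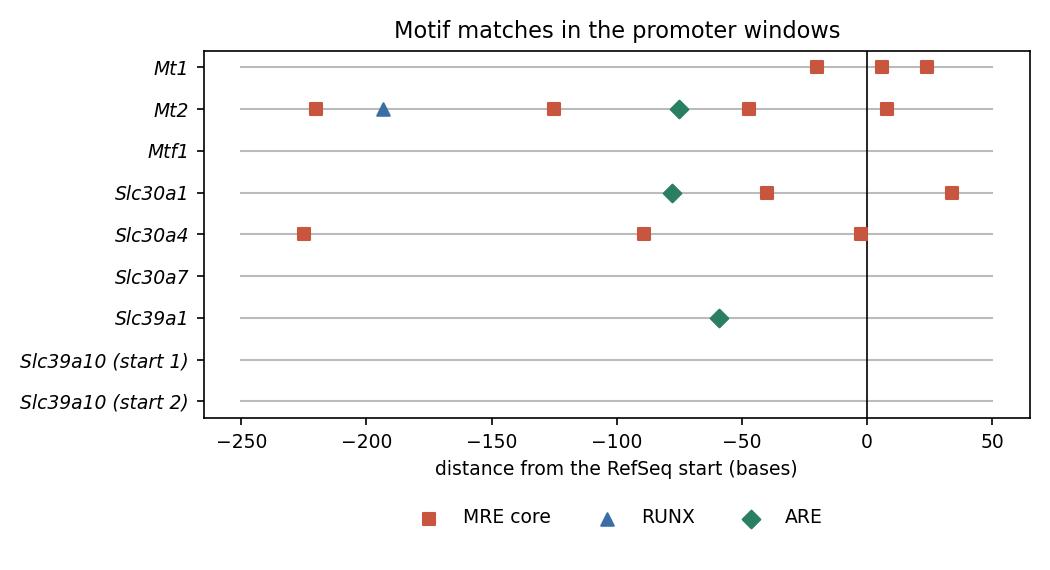
Matches to the MRE core, RUNX and ARE motifs (symbols) in 9 promoter windows of 8 genes, by distance in bases from the RefSeq start (vertical line). The windows of *Mt1* and *Mt2* hold 3 and 4 MRE matches, and both windows of *Slc39a10*, neither of them at its GENCODE 5′ end, hold 0.

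The FPKM totals of the libraries were close, at 521340 in KPR- and 523647 in KPRrestored. The steps between low FPKM values gave estimates of 21.9 M and 22.55 M fragments. *Runx3* itself had 0.348 FPKM in KPR- and 0.349 in KPRrestored, from about 28 and 29 fragments, a log2 difference of 0.0074 (95% counting interval -0.79 to 0.81). A value per gene does not separate the restored allele from other *Runx3* transcripts, so it does not check the labels, and higher or lower always means the library labelled KPRrestored set against the one labelled KPR-. All 6 epithelial markers examined were at 91.6 FPKM or more in both libraries. *Cldn4* among them had 107 and 202 FPKM, a log2 difference of 0.92, and the differences of the other 5 ranged from -0.20 to 0.13. The 6 lung epithelial markers were all under a mean of 1 FPKM, and *Sftpc*, *Sftpb*, *Sftpa1* and *Scgb1a1* were listed at 0 in both. The 6 leukocyte markers summed to 3.13 and 6.83 FPKM, nearly all of it *Cd68* (3.08 and 6.78), with *Lyz2* and *Cd3e* listed at 0 in both. The 4 endothelial markers summed to 1.16 and 2.22 FPKM, mostly *Kdr* (1.10 and 2.05), and *Tek* was listed at 0 in both. The 6 mesenchymal markers summed to 1790 and 1469 FPKM, nearly all of it *Vim* (1777 and 1464). *Col1a1*, a mesenchymal collagen gene, had 12.2 and 4.21 FPKM, a log2 difference of -1.53. The part of these marker levels in the differences described next was not tested.

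Differences were taken as log2(FPKM + 0.005) in KPRrestored minus KPR-, and a gene was called higher or lower at 0.5 or more either way. *Mt1* and *Mt2* were higher, *Slc39a10* was lower, and the other 7 genes lay within the threshold. Of the 11231 expressed genes, 12.1% were higher and 9.29% were lower, and of all 23183 genes 13.8% and 12.9%. The median difference of the 10 genes was 0.054, beside 0.0086 over the 11231 genes, and 6 of the 10 differences were above 0. At a threshold of 1, *Mt1*, *Mt2* and *Slc39a10* kept their calls, where 2.89% of expressed genes were higher and 1.38% were lower. In a bulk library, fewer cells with a transcript and less transcript per cell cannot be told apart.

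**Figure D2:**
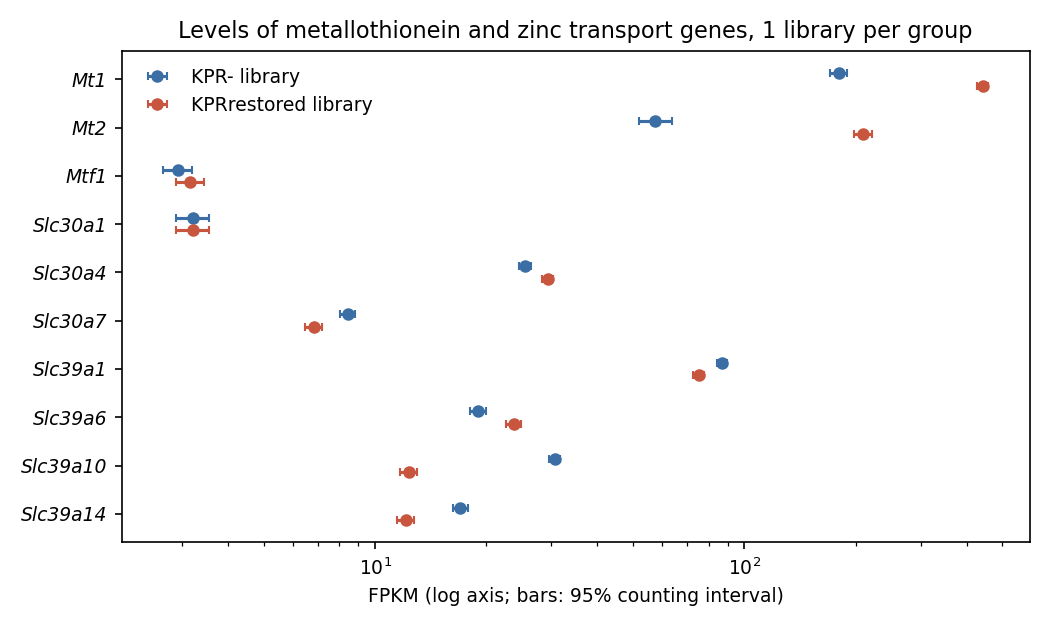
FPKM (log axis) of the 10 genes in the KPR- library (blue) and the KPRrestored library (red), 1 library per group, with 95% counting intervals as bars. *Mt1* moved from 180 to 443 FPKM and *Mt2* from 57.4 to 210, while *Slc39a10* moved from 30.6 to 12.3.

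*Mt1* lies on chromosome 8 (chr8:94179082-94180327, plus strand, 3 exons in the transcript used; gene positions are from GENCODE M21 on GRCm38). Its level was 180 FPKM in KPR- and 443 FPKM in KPRrestored, from about 1321 and 3295 fragments. This is a log2 difference of 1.30 (95% counting interval 1.21 to 1.39), or a 2.46-fold higher level. In order of FPKM among all genes *Mt1* stood at place 436 in KPR- and 169 in KPRrestored.

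*Mt2* lies beside it on the same strand (chr8:94172664-94173568, 3 exons). It had 57.4 FPKM in KPR- and 210 FPKM in KPRrestored, from about 373 and 1380 fragments. The log2 difference was 1.87 (counting interval 1.70 to 2.04), a 3.65-fold higher level. Its place in order of FPKM went from 1541 to 374.

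The *Mt2* difference exceeded that of *Mt1* by 0.57 on the log2 scale (counting interval 0.38 to 0.76). The level of *Mt2* was 0.319 times that of *Mt1* in KPR- and 0.473 times in KPRrestored. Among the 11231 expressed genes, the *Mt2* difference held place 70 from the top and that of *Mt1* place 173. Together both genes made up 0.0455% of the FPKM total in KPR- and 0.125% in KPRrestored, with summed levels of 237 and 652 FPKM.

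Both transcripts are short, and FPKM of short transcripts depends on the fragment lengths of a library, with fitted means of 215 bases in KPR- and 220 in KPRrestored. Of the 215 expressed genes with a longest transcript of 400 to 700 bases, 15.3% were higher, and 8 had a difference as large as that of *Mt1*, against 12.1% and 173 of all 11231 expressed genes. Of the 121 of these short genes with a mean level of 50 FPKM or more, *Mt1* and *Mt2* were the 2 with a difference as large as that of *Mt1*. The median difference of these 121 genes was 0.089, with quartiles of -0.023 and 0.20. The part of fragment length in the differences of *Mt1* and *Mt2* was not tested. The other metallothionein genes were barely detected: *Mt3* had 0.138 FPKM in KPR- (about 1 fragment) and was listed at 0 in KPRrestored, and *Mt4* was listed at 0 in KPR- and had 0.244 FPKM in KPRrestored (about 1 fragment).

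**Figure D3:**
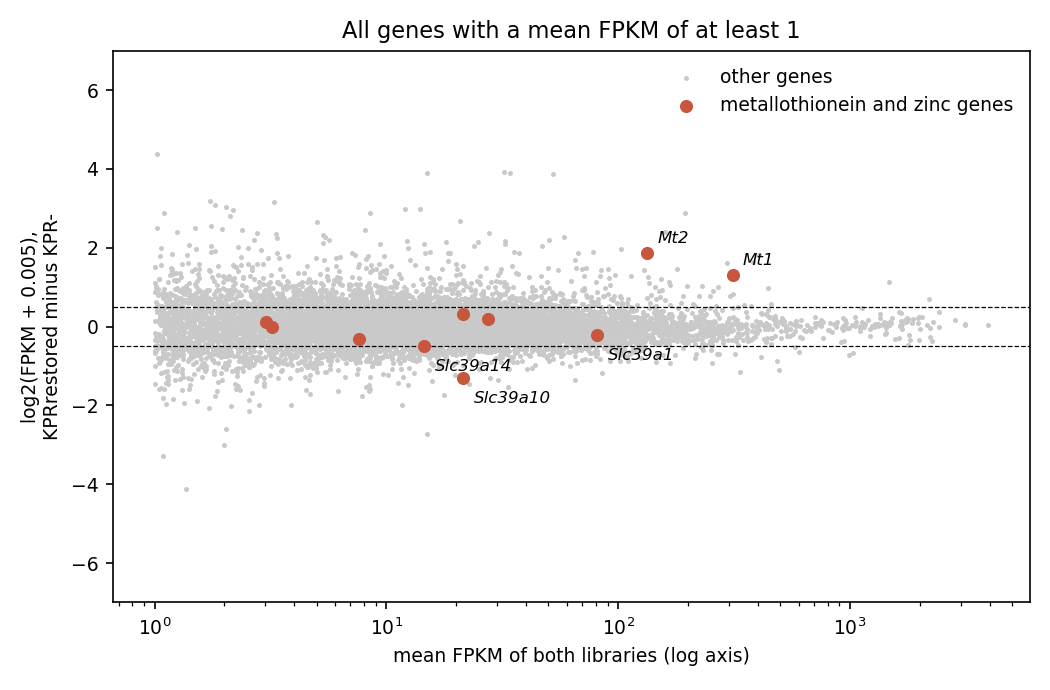
Log2 difference against mean FPKM (log axis) for expressed genes (grey) and the 10 metallothionein and zinc genes (red, 5 of them named), with dashed lines at 0.5 either way. *Mt1* and *Mt2* stand above, and *Slc39a10* below, most genes of like level (19 genes lie outside the plotted range).

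*Mtf1* (chr4:124802104-124849800, plus strand) had the lowest listed level of the 10 genes, close to that of *Slc30a1*. It had 2.92 FPKM in KPR- and 3.15 FPKM in KPRrestored, a log2 difference of 0.11 (counting interval -0.073 to 0.29), which includes 0. About 474 and 526 fragments stood behind these values. The upper bound lay under the intervals of *Mt1* and *Mt2*. Of its 100-base stretches, 8.26% occur in *1110065P20Rik*, a gene on the opposite strand that overlaps *Mtf1* and had 17.5 FPKM in KPR- and 19.4 FPKM in KPRrestored.

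*Slc30a1* encodes ZnT1, the carrier that exports zinc across the plasma membrane (chr1:191906767-191913247, plus strand). Its level was 3.21 FPKM in both libraries, from about 353 and 363 fragments, with a counting interval of the log2 difference of -0.22 to 0.22. Of its 100-base stretches, 7.19% occur in the antisense gene *1700034H15Rik*, which had 0.0440 and 0.0427 FPKM. The levels of *Slc30a1* and *Mtf1* had overlapping counting intervals in each library, so their order is not set. Its promoter window holds the 2 MRE core matches given above.

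*Slc30a4* encodes ZnT4, a carrier of endosomal and secretory vesicles (chr2:122681233-122702663, minus strand). It had 25.5 FPKM in KPR- and 29.3 FPKM in KPRrestored, a log2 difference of 0.20 (counting interval 0.13 to 0.27). Its promoter window holds the 3 MRE core matches given above, and its difference stayed under the threshold. A link between motif matches and differences was not tested.

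*Slc30a7* encodes ZnT7, a carrier of the Golgi apparatus (chr3:115938973-116007406, minus strand). It had 8.41 FPKM in KPR- and 6.81 FPKM in KPRrestored, a log2 difference of -0.30 (counting interval -0.41 to -0.20). Of its 100-base stretches, 18.0% occur in the pseudogenes *Gm6649* and *Gm43106*, which overlap *Slc30a7* on the opposite strand. The *Slc30a7* value is uncertain to that extent. The summed level of the 3 ZnT genes was 37.1 FPKM in KPR- and 39.3 FPKM in KPRrestored.

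*Slc39a10* encodes ZIP10, a plasma membrane zinc importer (chr1:46807544-46892852, minus strand). Its level was 30.6 FPKM in KPR- and 12.3 FPKM in KPRrestored, from about 3543 and 1466 fragments. The log2 difference was -1.31 (counting interval -1.40 to -1.23), so that 40.2% of the KPR- level was left. Among the 11231 genes it held place 75 from the bottom. In order of FPKM it went from place 2982 to 6066, against the direction of the metallothionein genes. The lincRNA gene *Gm28151* and the unclassified gene *Gm37393* overlap the locus on the same strand and were not analysed here. Of the 5399 stretches of 100 bases in the *Slc39a10* transcript used, 0 occur in a transcript of another gene.

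*Slc39a6* encodes ZIP6, a close relative with which ZIP10 is known to form a complex (chromosome 18, minus strand). Its level was 18.9 FPKM in KPR- and 23.7 FPKM in KPRrestored, a log2 difference of 0.32 (counting interval 0.23 to 0.42). The log2 difference of *Slc39a10* minus that of *Slc39a6* was -1.64 (counting interval -1.77 to -1.50). *Slc39a10* thus stood at 1.62 times the level of *Slc39a6* in KPR- and at 0.519 times in KPRrestored. *Slc39a6* overlaps *Elp2* on the opposite strand, and *Elp2* had 41.8 and 38.6 FPKM. Of the 3783 stretches of 100 bases in the *Slc39a6* transcript used, 0 occur in a transcript of another gene.

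*Slc39a14* encodes ZIP14, a carrier of zinc, iron and manganese (chr14:70303469-70351425, minus strand). It had 17.0 FPKM in KPR- and 12.1 FPKM in KPRrestored, from about 1756 and 1282 fragments. The log2 difference of -0.49 lay just inside the threshold (counting interval -0.60 to -0.39). It passed the threshold when the libraries were scaled to the same total, to the same upper quartile or to the median gene. In KPRrestored the levels of *Slc39a14* and *Slc39a10* had overlapping counting intervals, whereas in KPR- *Slc39a10* was the higher one.

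*Slc39a1* encodes ZIP1, a widely expressed plasma membrane importer (chr3:90248172-90253612, plus strand), and had the highest level of the 7 carriers. It had 87.1 FPKM in KPR- and 75.2 FPKM in KPRrestored, a log2 difference of -0.21 (counting interval -0.28 to -0.15). Of its 100-base stretches, 14.8% occur in the pseudogene *Slc39a1-ps*. The summed level of the 4 ZIP genes was 154 FPKM in KPR- and 123 FPKM in KPRrestored.

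**Figure D4:**
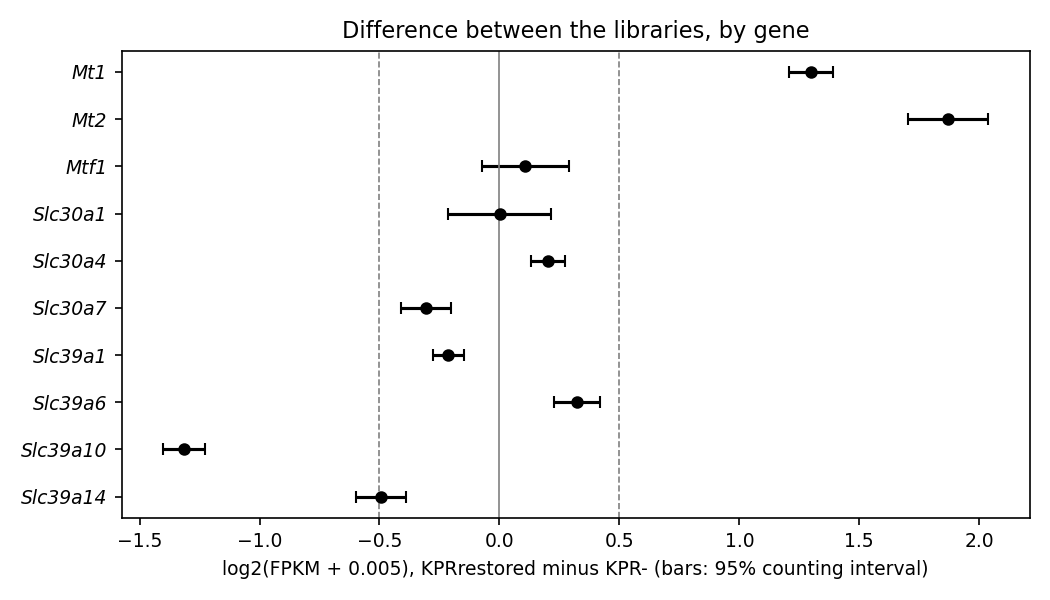
Log2 difference, KPRrestored minus KPR-, of each of the 10 genes (points) with 95% counting intervals (bars) and dashed lines at 0.5 either way. *Mt1* and *Mt2* lie to the right of the threshold at 1.30 and 1.87, *Slc39a10* to the left at -1.31, and *Slc39a14* lies just short of it at -0.49.

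In order of level the 10 genes in KPR- ran *Mt1*, *Slc39a1*, *Mt2*, *Slc39a10*, *Slc30a4*, *Slc39a6*, *Slc39a14*, *Slc30a7*, *Slc30a1*, *Mtf1*. In KPRrestored the order was *Mt1*, *Mt2*, *Slc39a1*, *Slc30a4*, *Slc39a6*, *Slc39a10*, *Slc39a14*, *Slc30a7*, *Slc30a1*, *Mtf1*. *Mt2* passed *Slc39a1*, and *Slc39a10* dropped below *Slc30a4* and *Slc39a6*. Neighbours other than *Slc30a1* with *Mtf1*, and *Slc39a10* with *Slc39a14* in KPRrestored, lay apart by their counting intervals. These intervals used the longest transcript of each gene. With the shortest one, *Slc39a6* and *Slc39a14* had about 51 and 56 fragments in KPR-, and the order was not checked with it.

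In the whole carrier families, 17 of 24 genes were expressed, and 13 of these 17 had a difference below 0, beside 5503 of all 11231 expressed genes. Of the 17 genes, 0 were higher and 2 were lower by the threshold, *Slc39a10* and *Slc39a11*, and 2 of 17 is close to the 9.29% of all expressed genes that were lower. The 6 ZnT genes had a median difference of -0.083 and the 11 ZIP genes one of -0.21, beside 0.0086 over all 11231 genes. Summed over the family, ZIP levels were 358 FPKM in KPR- and 314 FPKM in KPRrestored, and ZnT levels were 113 and 105 FPKM.

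*Slc39a11*, which encodes a ZIP carrier of its own branch of the family, had 10.8 FPKM in KPR- and 6.20 FPKM in KPRrestored, a log2 difference of -0.80 (counting interval -0.99 to -0.61). With the shortest annotated transcript in place of the longest, that interval was -1.74 to 0.058, which includes 0. *Slc39a7*, which encodes the zinc release carrier of the endoplasmic reticulum and Golgi apparatus, had the highest level of all carriers, at 118 and 110 FPKM, with a difference of -0.095. *Slc39a4*, which encodes the intestinal zinc importer, had 32.6 and 39.3 FPKM, a difference of 0.27. *Slc39a4* and *Slc39a6* were thus the ZIP genes of the 11 with a difference above 0.

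Among the others, *Slc39a13* had 21.4 and 16.1 FPKM (difference -0.41) and *Slc39a9* had 10.4 and 9.09 FPKM (-0.20). *Slc39a3* and *Slc39a8* had 8.29 and 7.83 FPKM, and 1.73 and 1.49 FPKM, and their counting intervals included 0. *Slc30a5*, whose product forms a heteromer with that of *Slc30a6* in the early secretory pathway, had 38.1 and 28.7 FPKM, a difference of -0.41 with an interval of -0.50 to -0.32. *Slc30a6* had 15.7 and 14.1 FPKM and *Slc30a9* had 22.4 and 22.2 FPKM, both with intervals that include 0. *Slc30a2*, *Slc30a3*, *Slc30a8*, *Slc30a10*, *Slc39a2*, *Slc39a5* and *Slc39a12* were under a mean FPKM of 1, and *Slc30a2* and *Slc30a8* were listed at 0 in both libraries.

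**Figure D5:**
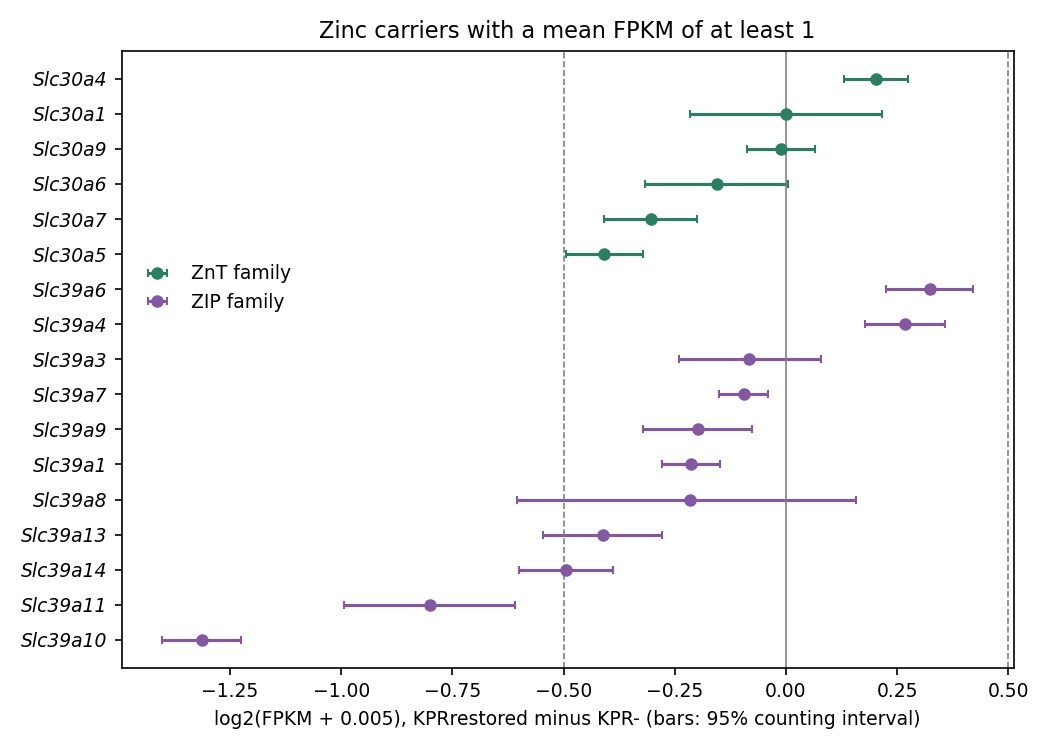
Log2 difference, KPRrestored minus KPR-, of the 6 ZnT genes (green) and 11 ZIP genes (purple) that were expressed, with 95% counting intervals (bars) and dashed lines at 0.5 either way. The points of 13 of the 17 genes lie left of 0, and *Slc39a10* and *Slc39a11* lie beyond the threshold.

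Other genes described as dependent on MTF-1 were *Ndrg1*, *Csrp1*, *Gclc*, *Sepw1* (also *Selenow*) and *Slc30a10*. Of the 4 that were expressed, 2 were higher and 0 were lower, beside 12.1% and 9.29% of all 11231 expressed genes. *Ndrg1*, a stress-induced gene of growth arrest and differentiation, had 33.1 FPKM in KPR- and 122 FPKM in KPRrestored, a log2 difference of 1.89, close in size to that of *Mt2*. *Csrp1*, which encodes a LIM-domain protein with zinc-binding modules, had 25.6 and 39.4 FPKM, a difference of 0.62. *Gclc*, which encodes the catalytic subunit of the first enzyme of glutathione synthesis, had 19.6 and 26.2 FPKM, a difference of 0.42. *Sepw1*, which encodes selenoprotein W, had 63.2 and 61.8 FPKM, a difference of -0.033 with a counting interval that includes 0. *Slc30a10* had about 3 fragments in KPR- and was listed at 0 in KPRrestored.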

How the data were processed

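RNA of KPR- and KPRrestored cells was measured in 2 libraries, 1 per group, grouped by the sample records. Per the study's methods, the authors selected poly(A) RNA, made directional libraries, trimmed the paired-end reads, mapped them with TopHat to mm10 (per the submitters' processing notes) and estimated the deposited FPKM values with Cufflinks. Versions and annotation are not given in the sources used here. The study names EdgeR for read counts, which were not used here.

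From the FPKM values, differences were computed as log2(FPKM + 0.005), KPRrestored minus KPR-, with a threshold of 0.5. The pseudocount is the one behind the log2 values in the study's supplementary table. A pseudocount this small lets genes with about 1 fragment show large differences, such as 5.64 for *Mt4* and -4.83 for *Mt3*. No p-value was computed. Depth was estimated from the steps of low FPKM values in genes with 1 transcript length over 500 bases (GENCODE M21, GRCm38): 77.7% and 78.8% of 582 and 598 values were no more than 0.1 from a whole number (20% by chance). The fits gave mean fragment lengths of 215 and 220 bases. Fragments per gene used the longest transcript with a RefSeq counterpart, so they are upper estimates. Counting intervals (95%, exact Clopper-Pearson for differences, exact Poisson for levels, conditional odds ratio for a pair of genes) set 1 library against the other and hold counting error alone. The procedure was tested on simulated data.

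The genes named were the 10 chosen genes, the rest of their families, the other MTF-1 linked genes and, in each further list, the 2 genes that rose most and the 2 that fell most. The chosen genes, lists and thresholds were set with earlier results of these data known. Markers named and the genes that overlap or share sequence with the chosen ones were named after their values were seen, as were *Tmem163* and *Mcoln1* as calls. Promoter windows are from RefSeq (GRCm38.p6), with windows used for 8 of the 10 genes, and transcripts are from GENCODE M21, with all 10 matched. Windows on the chromosome of *Slc39a6* were left out for the chosen genes. Alternatives were other pseudocounts (0.1 and 1), 3 scalings, a threshold of 1, filters on mean FPKM (none, 1 and 5) and the shortest transcript. Scripts ran in Python 3.11.15 with scipy 1.17.1, numpy 2.4.6, matplotlib 3.10.9 and pandas 2.3.3.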

Additional observations from a re-analysis of the deposited data

How the results depend on the processing

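Each group is 1 library, so no difference has a replicate check, and the size of the variation between cultures is unknown here. No paired analysis was possible because each group has a single library and the records carry no replicate numbers. Over the other pseudocounts and scalings, *Mt1* ranged from 1.28 to 1.30, *Mt2* from 1.85 to 1.87 and *Slc39a10* from -1.34 to -1.25, where the scalings by construction shift all genes nearly alike (by 0.022 at most). The number of the 10 genes called lower went from 1 to 2 with a common total (TPM), a common upper quartile of expressed genes and centring on the median expressed gene, because *Slc39a14* then passed the threshold. With no filter on low values, 1 carrier of both families was higher and 5 were lower, against 0 and 2. The added calls rested on few fragments: about 3 and 12 for *Slc30a3*, 3 and 0 for *Slc30a10*, 2 and 1 for *Slc39a5*, and 26 and 14 for *Slc39a12*. The counting intervals of *Slc30a10*, *Slc39a5* and *Slc39a12*, the added lower ones, included 0. The counting intervals of *Slc30a7*, *Slc39a6* and *Slc39a14*, and of the carriers *Slc39a4*, *Slc39a9*, *Slc39a11* and *Slc39a13*, included 0 when the shortest annotated transcript stood for the gene.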

Other observations

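Further lists of genes that handle metals or respond to inducers of metallothioneins were described in the same way. Of the 4 other zinc handling genes, 2 were higher, beside 12.1% of all 11231 expressed genes. *Tmem163*, which encodes a zinc efflux protein, had 0.891 FPKM in KPR- and 1.77 FPKM in KPRrestored, a log2 difference of 0.99 from about 48 and 97 fragments, which was 0.55 with a pseudocount of 1. *Mcoln1*, which encodes a lysosomal cation channel, had 20.8 and 29.5 FPKM, a difference of 0.50 that fell under the threshold with a pseudocount of 1 and with all 3 scalings. *Cbwd1*, which encodes a zinc chaperone, had a difference of 0.24, and *Trpm7*, which encodes a channel kinase for divalent cations, one of -0.16. Of the 12 copper handling genes, 1 was higher and 1 was lower, with a median of 0.014. These counts are close to the 12.1% and 9.29% of all expressed genes. *Cox17*, a copper chaperone of mitochondria, had 90.3 and 130 FPKM (difference 0.53), and *Slc31a2*, a copper carrier, had 5.04 and 6.48 FPKM (0.36). *Atp7b*, a copper pump, had 1.34 and 0.936 FPKM, a difference of -0.52 that was under the threshold with pseudocounts of 0.1 and 1, and *Sco2* had a difference of -0.072.

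Of the 8 heavy metal and oxidant response genes, 3 were higher and 1 was lower, with a median of 0.40, beside 0.0086 over all 11231 genes. Among those 11231 genes, 12.1% were higher and 9.29% were lower. *Gclc*, counted above among the MTF-1 linked genes, is also 1 of the 8. *Hmox1*, which encodes the inducible heme oxygenase, and *Nqo1*, which encodes a quinone reductase, had log2 differences of 1.90 and 1.54. *Hmox1* had 15.1 and 56.2 FPKM. *Nqo1* had 1.12 and 3.28 FPKM (about 33 and 99 fragments), and a pseudocount of 1 lowered its difference to 1.01. *Hspa1b* and *Hspa1a*, inducible heat shock genes that also rise with heavy metals, went the other way, with 35.5 and 23.2 FPKM (-0.61) and 8.63 and 6.47 FPKM (-0.42). Those genes are near-identical copies, so the split of reads between them is uncertain.

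Of the 6 expressed genes of the glucocorticoid list, which includes the receptor gene *Nr3c1*, 2 were higher and 1 was lower, with a median of 0.37. The shares over all expressed genes were 12.1% higher and 9.29% lower. *Tsc22d3*, which encodes the glucocorticoid-induced leucine zipper, had 8.85 and 28.2 FPKM (1.67), and *Klf9*, a zinc-finger factor, had 8.73 and 14.6 FPKM (0.74). *Fkbp5*, another glucocorticoid-induced gene, went from 32.7 to 21.3 FPKM (-0.62). *Nr3c1*, which encodes the glucocorticoid receptor, had 9.46 and 9.03 FPKM (-0.067), with a counting interval that includes 0.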
